A study of Mus musculus with 400 samples.

Results

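Piezo1, Piezo2, Tmem63a, Tmem63b, Tmem120a and Tmem150c are 6 genes, of 24755 in the tables, that have been described as ion channels opened by mechanical force or as partners or candidates for that role. They were followed here across single sensory neurons. The members were taken by gene symbol, and all 6 had a row. Cells came from cervical (C1-C8) dorsal root ganglia (DRG) of 6 naive mice aged 6-12 weeks, labelled Nav1.8-Cre R26CAG-floxStop-tdTomato (strain Nav1.8-Cre.Ai14). All mice were of this genotype and none was treated, so every comparison is between kinds of cell. Not every mouse gave enough cells of every kind, so some comparisons also set different mice and runs against each other. Run 1 sequenced mice Blue and Red, run 2 Control, run 3 Control1 with Control2, and run 4 Control6. Cells were sorted on tdTomato, a red protein that stays on once a cell has expressed Cre from the Scn10a (Nav1.8) locus or promoter. Neurons that never expressed Scn10a, which include many of the large touch and position sensors, are therefore expected to be missing or rare.

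Piezo1 and Piezo2 encode very large membrane proteins that assemble into 3-bladed cation channels, which open when the membrane is stretched or indented. Piezo2 carries much of the light-touch and position sense of DRG neurons, and Piezo1 is better known from endothelium, red cells and other tissues under flow or stretch. Tmem63a and Tmem63b belong to the OSCA/TMEM63 family of stretch-activated channels, whose other branch is an osmosensitive channel family of plants. Tmem120a (TACAN) was proposed as a nociceptor mechanosensor and was later found to resemble a fatty acid elongase and to reduce Piezo2 currents. Tmem150c (Tentonin 3) was reported to give slowly adapting mechanical currents and to change the gating of Piezo channels.

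Cells were assigned by levels of genes that mark DRG neuron classes, in CPM (counts scaled to the total of the cell, without the ribosomal RNA gene Rn45s). The 6 gates used were thresholds and not cell types: Mrgprd of at least 200 CPM, Mrgpra3 of at least 50, Sst or Nppb of at least 100, Th of at least 100, Calca of at least 2000 with Tac1 of at least 1000, and Nefh of at least 500. As background, Mrgprd marks skin-innervating polymodal nociceptors, Mrgpra3 and Nppb mark itch neurons, Th marks low-threshold C fibres, Calca with Tac1 marks peptidergic nociceptors and Nefh marks neurons with myelinated axons. Of 371 cells with at least 500 genes, 329 passed exactly 1 gate, 14 passed 2 and 28 passed none. The cells of exactly 1 gate numbered 44 for Mrgpra3, 45 for Sst/Nppb, 34 for Th, 81 for Calca/Tac1 and 17 for Nefh. The Mrgprd gate was the largest: mice Red and Blue gave 34 and 31 of its cells, Control gave 15, Control6 gave 11, Control2 gave 9 and Control1 gave 8. Of the Calca/Tac1 cells, Red gave 37, Blue 32 and each other mouse 3, so the means of those other mice rest on few cells.

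Kept cells held a median of 30366 counts recovered from the deposited values. The median differed by gate, from 17052 counts in Sst/Nppb cells and 19621 in Calca/Tac1 cells to 30987 in Th, 39371 in Mrgpra3, 46055 in Mrgprd and 83995 in Nefh cells. Neuronal genes such as Snap25 and Uchl1 were high in every gate (median sum of the 8 listed genes 8848 to 10216 CPM). Satellite glial genes had a median sum of 3389 CPM in Nefh cells and at most 36.4 CPM in the other gates. Single cells of every gate nonetheless held 1000 CPM or more of them: 27 of 81 Calca/Tac1, 13 Mrgprd, 9 of 44 Mrgpra3, 6 of 34 Th, 5 of 45 Sst/Nppb and 15 of 17 Nefh cells. The 6 Schwann cell genes had a median sum of 2055 CPM in Th cells and of 137 to 785 CPM in the others. Pmp22 made up 78.7% of their mean sum in Th cells and 48.6 to 93.2% in the other gates. The mural cell list reached a median of 766 CPM in Th cells, with 99.9% of it from Rgs5 and with Acta2, Myh11 and Des at 0, and 186 CPM in Mrgpra3 cells. No endothelial gene of 5 had a value in Sst/Nppb, Th or Calca/Tac1 cells, and the 5 macrophage genes had a median sum of 0 in every gate. Of the 17 Nefh cells, 13 came from mouse Control, so values of that gate describe 1 mouse.

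The sequence before the start of transcription is shown for 3 members that differed in Sst/Nppb cells from the mean of the other gates and have 1 start in the RefSeq promoter table. Piezo1 and Tmem63a were higher there, and Tmem63b was lower. Each run below is the 250 bases before the RefSeq start on GRCm38.p6, read 5′ to 3′ on the gene's strand: chr8:122551330-122551579 on the minus strand, chr1:180942268-180942517 on the plus strand and chr17:45686219-45686468 on the minus strand. Capitals mark matches, on either strand, to the GC box GGGCGG, the CCAAT box CCAAT, the TATA box TATAAA and the RUNX core TGTGGT.
Piezo1: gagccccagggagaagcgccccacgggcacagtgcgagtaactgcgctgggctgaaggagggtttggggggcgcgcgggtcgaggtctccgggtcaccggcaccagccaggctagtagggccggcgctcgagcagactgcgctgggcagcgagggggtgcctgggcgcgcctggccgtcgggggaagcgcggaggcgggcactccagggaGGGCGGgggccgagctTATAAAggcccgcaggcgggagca
Tmem63a: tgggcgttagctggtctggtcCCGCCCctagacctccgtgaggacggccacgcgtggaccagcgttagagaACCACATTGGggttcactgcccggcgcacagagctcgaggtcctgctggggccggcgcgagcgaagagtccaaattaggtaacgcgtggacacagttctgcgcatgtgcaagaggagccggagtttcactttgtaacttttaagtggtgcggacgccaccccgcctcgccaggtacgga
Tmem63b: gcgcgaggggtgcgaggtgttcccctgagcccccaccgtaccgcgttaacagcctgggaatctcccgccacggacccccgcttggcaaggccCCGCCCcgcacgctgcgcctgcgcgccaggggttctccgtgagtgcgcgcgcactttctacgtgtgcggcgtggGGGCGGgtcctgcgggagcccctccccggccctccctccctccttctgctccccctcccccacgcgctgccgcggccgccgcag
The Piezo1 run held a GC box at base -40 and a TATA box at base -24, counted from the start to the leftmost base of the match. The Tmem63a run held a GC box at -229 and, sharing 1 base, a RUNX core at -179 and a CCAAT box at -174. The Tmem63b run held GC boxes at -158 and -84 and none of the other 3. Over all 32851 RefSeq promoters of 300 bases, 35.66% held the GC box, 37.41% the CCAAT box, 13.62% the TATA box and 16.76% the RUNX core. The E-box CANNTG was also searched and is not in capitals: 72.31% of promoters hold it, Tmem63a has it at -77, and the Piezo1 and Tmem63b runs do not. Guanine and cytosine made up 74% of the Piezo1 run, 62% of the Tmem63a run and 75.6% of the Tmem63b run. A match is a description of letters and not a bound site.

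In GENCODE vM21 on GRCm38 (mm10), Piezo1 (ENSMUSG00000014444) lies on chromosome 8 from 122481698 to 122551329, minus strand. Tmem63a (ENSMUSG00000026519) lies on chromosome 1 from 180942344 to 180975112, plus strand, and Tmem63b (ENSMUSG00000036026) on chromosome 17 from 45660171 to 45686905, minus strand. The RefSeq starts of Tmem63a and Tmem63b fall inside these GENCODE genes, whereas that of Piezo1 coincides with the GENCODE start. Tmem120a (ENSMUSG00000039886) and Tmem150c (ENSMUSG00000050640) are on the minus strand of chromosome 5, from 135735485 to 135744448 and from 100077872 to 100159808. All are protein-coding genes. Piezo1 shares 2441 exonic bases with Ctu2 on the opposite strand, Tmem63b shares a shorter stretch with Mrpl14, and Tmem150c shares 212 with the antisense gene Tmem150cos. The sources used here do not say whether counting used strand, so reads in those stretches cannot be assigned with certainty.

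**Figure D1:**
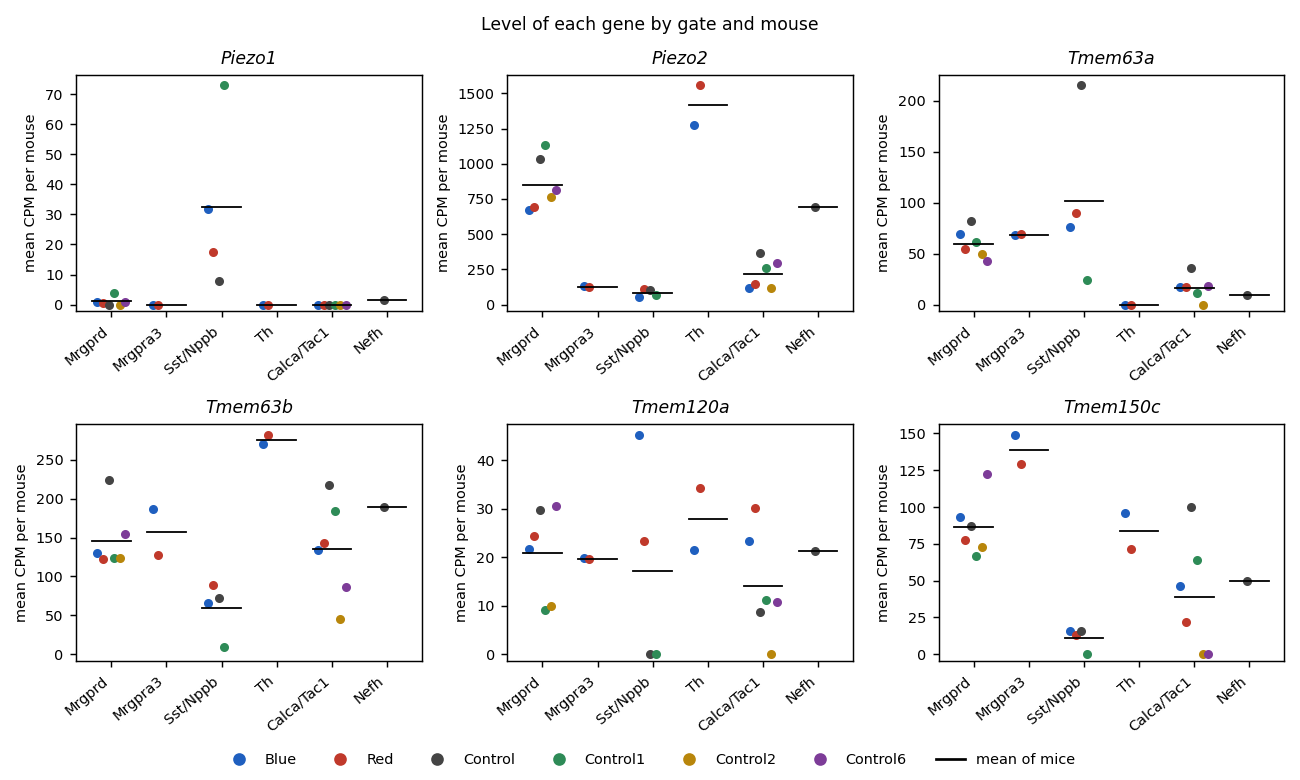
Mean CPM of each of the 6 genes (vertical axis, linear, a scale for each panel) by gate, with 1 point for each mouse that had at least 3 cells in the gate and a line at the mean of mice. Piezo2 was highest in Th cells, Piezo1 was highest in Sst/Nppb cells, and Tmem63a was listed at 0 in Th cells of both mice.

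The main comparison set the level of each gene in a gate against the mean of the other 5 gates. It used limma on log2(CPM + 5) of 21 means of mouse and gate, with the mouse as a block, and called a gene where its Benjamini-Hochberg p, adjusted over 9161 genes, was under 0.05. Differences below are on that log2 scale, which makes the change of low genes smaller than their ratio of CPM. Counts of mice beside these differences set the gate against whichever other gates the same mouse had, not always all 5. Control2 and Control6 had only Mrgprd and Calca/Tac1 means, so there each of these gates was set against the other alone. In Mrgprd cells 12.1% of all genes tested were called in either direction, and 2 of the 5 members tested were (Piezo2 and Tmem63a, both higher). The shares of all genes were 2.1% in Mrgpra3 cells, with 1 of 5 members called (Piezo2, lower), and 6.37% in Th cells, with 2 of 5 (Piezo2 higher, Tmem63a lower). In Calca/Tac1 cells 9.85% of genes and 1 of 5 members (Piezo2, lower) were called. In Sst/Nppb cells 19.4% of genes and 4 of 5 members were called: Tmem63a was higher, and Piezo2, Tmem63b and Tmem150c were lower. In Nefh cells 0.797% of genes and 0 of 5 members were called by limma. At an unadjusted p under 0.05 limma marked 751 genes there, among them Tmem63a, while edgeR called 1595 genes and DESeq2 814. Piezo1 had a mean under 10 CPM and was not tested in the main comparison. Fewer than 3 mice stood behind the Mrgpra3, Th and Nefh values, and 20 of the 30 member differences were not called. The Mrgpra3 and Th means came from Blue and Red only and the Nefh mean from Control only. No mouse thus had a mean in every gate, and Th and Nefh cells were never compared within a mouse. The median gene of the whole table was lower by 0.17 in Sst/Nppb cells and higher by 0.14 in Nefh cells, and within 0.09 of 0 in the other gates.

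**Figure D2:**
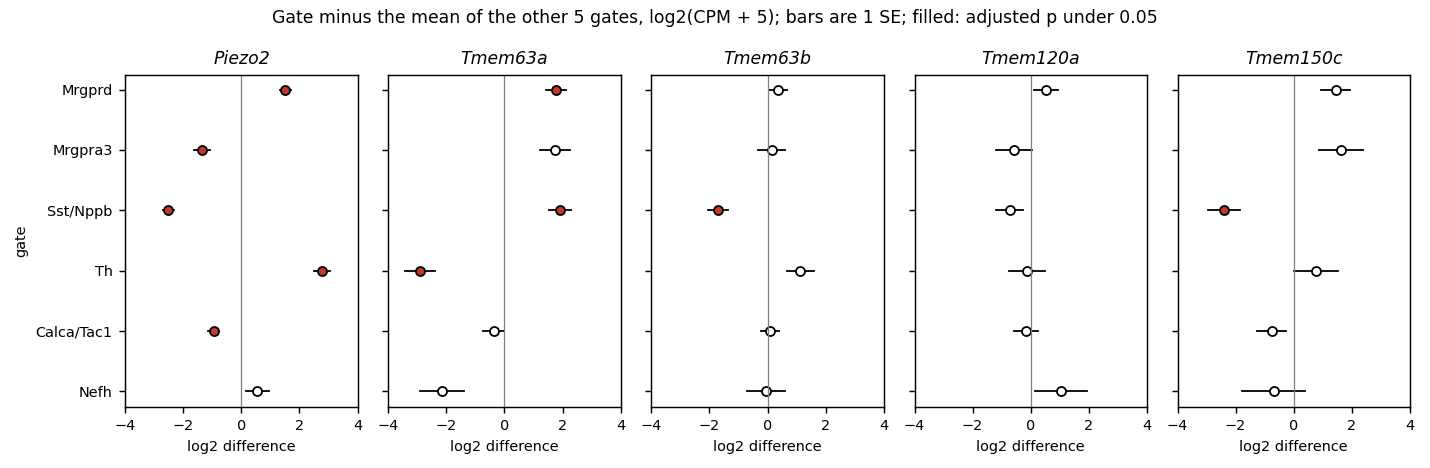
Difference of each gate from the mean of the other 5 gates for the 5 genes tested, on the log2(CPM + 5) scale (horizontal axis). Points are estimates, bars are 1 standard error, and the 10 filled points have an adjusted p under 0.05, of which 4 are in the Sst/Nppb gate.

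Piezo2, the touch channel, was highest in Th and Mrgprd cells and lowest in Sst/Nppb cells. Mean levels per mouse in Th cells were 1279 CPM in Blue and 1559 in Red. In Mrgprd cells the 6 mice ranged from 668 to 1132 CPM, with a median of 791. The lowest Th mouse thus lay above the highest Mrgprd mouse. In the Nefh cells of Control the level was 696 CPM. In Calca/Tac1 cells the 6 mice ranged from 116.4 to 366 CPM, with a median of 202. All of these lay under every Mrgprd mouse. Mrgpra3 cells held 128.5 CPM in Blue and 121.7 in Red, and Sst/Nppb cells held 50.96 in Blue, 108.99 in Red, 104.8 in Control and 67.02 in Control1. The 2 lowest gates sat within or under the range of the Calca/Tac1 mice.

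The order of Piezo2 levels was therefore Th (1419 ± 198 CPM, SD, n = 2 mice), Mrgprd (852 ± 190, n = 6), Nefh (696, n = 1), Calca/Tac1 (217 ± 104.4, n = 6), Mrgpra3 (125.1 ± 4.82, n = 2) and Sst/Nppb (82.9 ± 28.5, n = 4). Within mice, Th exceeded Mrgprd by 1.05 ± 0.16 (SD of 2 mice) on the log2 scale. Calca/Tac1 and Mrgpra3 differed by 0.07 ± 0.25 in the 2 mice that had both, and Mrgpra3 and Sst/Nppb by 0.70 ± 0.78. Those 2 neighbouring pairs did not differ beyond their spread. Nefh stood between Mrgprd and Calca/Tac1 in its 1 mouse, 0.57 under the former and 0.92 above the latter, with no spread to compare.

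Against the mean of the other gates, Piezo2 was higher in Th cells by 2.77 (SE 0.28, adjusted p = 1.51e-06, limma) and in Mrgprd cells by 1.51 (SE 0.18, adjusted p = 7.83e-06), in 2 of 2 and 6 of 6 mice. It fell by 2.52 in Sst/Nppb cells (SE 0.20, adjusted p = 2.85e-08) and by 1.36 in Mrgpra3 cells (SE 0.28, adjusted p = 0.00891), in 4 of 4 and 2 of 2 mice. In Calca/Tac1 cells it fell by 0.96 (SE 0.18, adjusted p = 0.00129), in 6 of 6 mice. The Nefh difference was 0.55 (SE 0.39, adjusted p = 0.836). The Mrgprd, Sst/Nppb and Th calls held under every alternative that gave a value. Run 1 had no Nefh mean and runs 2 to 4 no Mrgpra3 or Th mean, so each gate was set against fewer others there. Within run 1 the differences were 1.70 for Mrgprd, -2.18 for Sst/Nppb and 3.00 for Th. In runs 2 to 4 they were 2.16 for Mrgprd and -2.75 for Sst/Nppb. The 2 smaller calls were lost with some settings. The Calca/Tac1 difference was -0.42 in runs 2 to 4 (adjusted p = 0.652), -0.85 without Blue (adjusted p = 0.0684) and -0.50 with DESeq2 (adjusted p = 0.0698). The Mrgpra3 difference was -1.61 without Blue and -1.12 without Red (adjusted p = 0.412 and 0.971), which leaves 1 mouse in that gate, and -0.82 with log2 values averaged over cells (adjusted p = 0.81). Markers of Schwann cells were highest in the Th gate, where 33 of 34 cells held 1000 CPM or more of satellite glial and Schwann cell genes together. Leaving out such cells removed the Th and Nefh gates, so each remaining gate was set against 3 others. On that contrast Piezo2 differed by 2.92 in Mrgprd and -1.92 in Sst/Nppb cells, both called, and by -0.54 in Mrgpra3 and -0.46 in Calca/Tac1 cells, which did not pass (adjusted p = 0.571 and 0.299). Leaving out cells of 1000 CPM or more of satellite glial genes kept 16 of the 21 means and none of Nefh cells. Against the gates left, the Piezo2 difference in Th cells was 3.24 (adjusted p = 8.97e-07, limma).

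**Figure D3:**
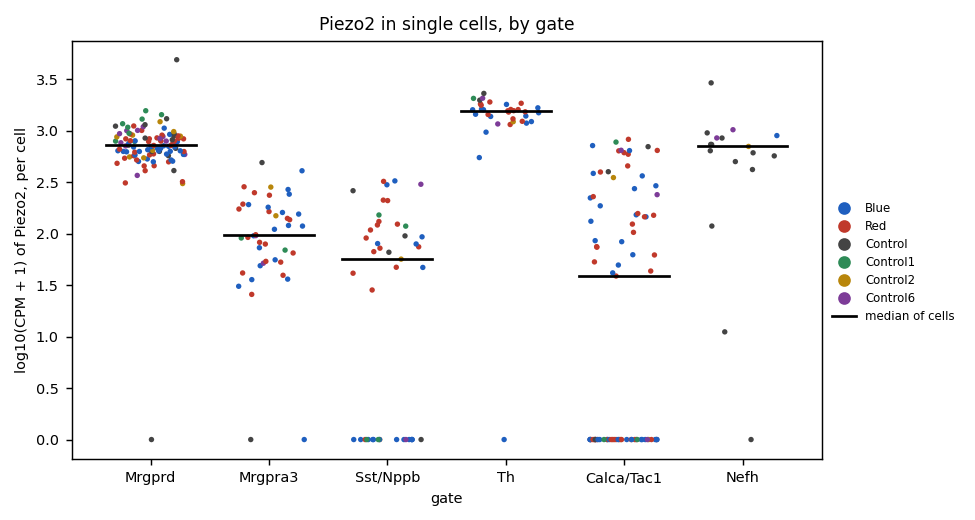
Piezo2 in each of the 329 cells of exactly 1 gate, as log10(CPM + 1) (vertical axis), by gate, coloured by mouse, with a line at the median of cells. Mrgprd and Th cells form a narrow band with 1 cell of each at 0, whereas Calca/Tac1 cells run from 0 to 824 CPM.

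Cells of one gate differed in how evenly they carried Piezo2. In Th cells 33 of 34 had a value (97.1%, exact Clopper-Pearson 95% interval 84.7 to 99.9%), and 31 were at 1000 CPM or more. In Mrgprd cells all but 1 had a value, and 96 were at 500 CPM or more. The single Mrgprd cell at 0 held 1152 counts, against a median of 46146 in those with a value. Calca/Tac1 cells were split: 41 of 81 had a value (50.6%, interval 39.3 to 61.9%), 21 were at 200 CPM or more, 10 at 500 or more and none at 1000. The 40 cells at 0 had a median of 16454 counts, against 22015 in the 41 with a value. Depth was thus somewhat lower in the cells without a value. After each cell was thinned to 10000 counts, 45.5% of 77 Calca/Tac1 cells and 100% of Mrgprd cells had a value. Of 45 Sst/Nppb cells, 27 had a value (60%, interval 44.3 to 74.3%), and none reached 500 CPM. Intervals cover counting error only.

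Piezo1, the channel better known from tissues under flow, had a value in 26 cells of the 6 gates, of which 18 were Sst/Nppb cells. These made up 40% of the 45 cells of that gate (interval 25.7 to 55.7%). The mouse means were 31.9 CPM in Blue, 17.6 in Red, 7.84 in Control and 72.9 in Control1, with a mean of 32.5 ± 28.6 (SD, n = 4). All 4 mice had at least 1 such cell. Control1 was the highest, and its mean rested mostly on 1 of its 4 cells, at 253 CPM, with the next at 38.8 CPM. The 18 cells of the gate with a value held 21 counts of Piezo1, so most held 1 count. A single count is a higher CPM in a cell of fewer counts, so these CPM values also follow depth. A value was found in 9 of 18 cells of Blue, 5 of 15 of Red, 1 of 4 of Control and 2 of 4 of Control1. Of the mice with too few cells for a mean, Control6 had 1 of 2 and Control2 had 0 of 2. Elsewhere Piezo1 was rare: 5 Mrgprd cells (4.63% of the gate, interval 1.52 to 10.5%) and 3 of 17 Nefh cells had a value. None was found in 44 Mrgpra3, 34 Th and 81 Calca/Tac1 cells, which allows shares of up to 6.82%, 8.82% and 3.70% by a floor of 3 cells, with exact upper limits of 8.04%, 10.3% and 4.45%. Sst/Nppb cells had the lowest median depth of the gates (17052 counts, against 19621 in Calca/Tac1 cells). Within that gate, cells with Piezo1 had a median of 22669 counts and those without it 16624. At 10000 counts per cell, 10 of 40 Sst/Nppb cells (25%, interval 12.7 to 41.2%) and 0 of 77 Calca/Tac1 cells had a value.

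Summed over cells, Piezo1 gave 21 counts in Sst/Nppb cells (23.97 CPM), 4 in Mrgprd cells (0.791 CPM), 3 in Nefh cells (1.76 CPM) and 0 in the other gates. With a floor of 3 counts in place of 0, its summed level in Sst/Nppb cells was 14.7-fold that floor in Calca/Tac1 cells. It was 14.5-fold the floor in Mrgpra3 cells and 8.41-fold that in Th cells. The counting error of the 21 counts and the spread between mice are not in these folds. In the fit without a filter on low values it was called higher in Sst/Nppb cells by 2.34 (adjusted p = 7.30e-05, limma), in 4 of 4 mice. On recovered counts edgeR gave 5.24 (adjusted p = 1.63e-04) and DESeq2 gave 4.84 (adjusted p = 0.00335), whose size depends on how counts of 0 are treated. Without testing, the difference was 2.47 in run 1, against other gates without Nefh. It was 2.22 in runs 2 to 4, against other gates without Mrgpra3 and Th. No endothelial gene of the 5 listed had a value in Sst/Nppb cells, and the 5 erythroid genes averaged 2.2 CPM there. Ctu2, which overlaps Piezo1 on the other strand, was at 8.07 CPM in Sst/Nppb cells and at 12.95 CPM in Mrgprd and 16.7 CPM in Mrgpra3 cells. Of the 18 Sst/Nppb cells with Piezo1, 4 had a Ctu2 value. Of the same 18 cells, 16 had Tmem63a and 10 had Piezo2.

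Tmem63a, a stretch-activated channel of the OSCA/TMEM63 family, was present in Sst/Nppb, Mrgpra3 and Mrgprd cells and was listed at 0 in Th cells. The Sst/Nppb mouse means were 75.8 CPM in Blue, 90.1 in Red, 215 in Control and 24.4 in Control1. Those of Mrgpra3 cells were 67.9 in Blue and 69.4 in Red. Mrgprd mice ranged from 42.6 to 81.9 CPM with a median of 58.2. These 3 gates overlapped. The Sst/Nppb mean of Control rested on 1 of its 4 cells, at 701 CPM, without which it was 53.4 CPM. That value was 1 count in a cell of 1427 counts, the fewest in the gate. Calca/Tac1 mice ranged from 0 to 35.9 CPM with a median of 17.5, under every Mrgprd mouse. Nefh cells of Control held 9.05 CPM, and Th cells 0 in Blue and in Red.

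By mean level the order was Sst/Nppb (101.4 ± 80.99 CPM, SD, n = 4), Mrgpra3 (68.7 ± 1.10, n = 2), Mrgprd (59.999 ± 14.2, n = 6), Calca/Tac1 (16.7 ± 11.7, n = 6), Nefh (9.05, n = 1) and Th (0, n = 2). Within mice Mrgpra3 and Mrgprd differed by 0.14 ± 0.25, less than their spread, and Sst/Nppb and Mrgprd differed by 0.24 ± 1.07 over 4 mice, again less than their spread. Without Control the Sst/Nppb mean was 63.4 ± 34.6 CPM (n = 3), below that of Mrgpra3 cells, so the order of these 3 gates was not settled. Mrgprd exceeded Calca/Tac1 by 1.79 ± 0.89 in 6 of 6 mice. Not 1 of 34 Th cells had a value, which allows a share of up to 8.82% by the floor of 3 cells (exact upper limit 10.3%), and 6 of these cells came from mice other than Blue and Red. The median Th cell held 30987 counts, more than the 17052 of Sst/Nppb cells, of which 36 of 45 (80%, interval 65.4 to 90.4%) had a value. Over the summed counts, Th cells were given a floor of 3 counts in place of 0. Tmem63a was 28.04-fold that floor in Sst/Nppb, 25.3-fold in Mrgpra3 and 20.8-fold in Mrgprd cells. Counting error and the spread between mice are not in these folds.

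The Tmem63a differences from the other gates were 1.92 in Sst/Nppb cells (SE 0.38, adjusted p = 0.00136, limma, 3 of 4 mice) and 1.77 in Mrgprd cells (SE 0.35, adjusted p = 0.00136, 6 of 6 mice). In Th cells the gene fell by 2.91 (SE 0.53, adjusted p = 0.00124, 2 of 2 mice). The Mrgpra3 difference of 1.75 did not pass (adjusted p = 0.111), and neither did that of Nefh cells at -2.15 (adjusted p = 0.297). With cells thinned to 10000 counts, which left 2 of the 4 Sst/Nppb mice and 17 of the 21 means, the Sst/Nppb difference was 1.07 (adjusted p = 0.389) and the Mrgprd difference 1.49 (adjusted p = 0.0562). Without cells of 1000 CPM or more of glial genes, against 3 other gates and no Th cells, they were 0.41 and 0.55 (adjusted p = 0.389 and 0.314). Without Control, which also left no Nefh mean, the Sst/Nppb difference was 1.31 (adjusted p = 0.0445). Without Blue, the adjusted p was 0.0525 for Sst/Nppb, 0.0595 for Mrgprd and 0.241 for Th, and without Red it was 0.0624 for Sst/Nppb and 0.249 for Th. The Th estimate itself was -2.90 and -2.92 without those mice. Within run 1, which had no Nefh mean, the values were 1.68 for Sst/Nppb, 1.19 for Mrgprd and -3.48 for Th. In runs 2 to 4, with no Mrgpra3 or Th mean, they were 1.67 for Sst/Nppb and 1.79 for Mrgprd (adjusted p = 0.243 and 0.172). The Sst/Nppb and Mrgprd calls were thus lost under several settings, most of which also left fewer mice or means, while the direction was kept in all alternatives.

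Tmem63b, the paralog of Tmem63a, was found in most cells of every gate and was lowest in Sst/Nppb cells. The Th means were 270 CPM in Blue and 282 in Red. Sst/Nppb means were 65.8 CPM in Blue, 89.6 in Red, 72.01 in Control and 9.69 in Control1. Both Th mice lay above every other mouse of any gate, and the Sst/Nppb mice overlapped only with those of Calca/Tac1. The other levels were 189 CPM in Nefh cells (n = 1), 157 ± 42.1 in Mrgpra3 (n = 2), 146 ± 39.7 in Mrgprd (n = 6) and 135 ± 62.5 in Calca/Tac1 cells (n = 6). Within mice Mrgpra3 and Mrgprd differed by 0.28 ± 0.32 and Mrgprd and Calca/Tac1 by 0.23 ± 0.71, less than their spread. A value was found in 34 of 34 Th cells and in 31 of 45 Sst/Nppb cells (68.9%, interval 53.4 to 81.8%). Tmem63b fell by 1.70 in Sst/Nppb cells (SE 0.34, adjusted p = 0.00134, limma), in 4 of 4 mice. The difference was -1.06 in run 1 (no Nefh mean) and -2.30 in runs 2 to 4 (no Mrgpra3 or Th mean). With cells thinned to 10000 counts and 2 Sst/Nppb mice left it was -0.86 (adjusted p = 0.274). The Th difference of 1.13 did not pass (SE 0.46, adjusted p = 0.209), though edgeR gave 1.12 with an adjusted p of 3.07e-09. Mrpl14, which overlaps Tmem63b on the other strand, was at 56.4 CPM in Sst/Nppb and 62.1 CPM in Th cells.

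Against the mean of the other gates, Tmem63a was thus higher and Tmem63b lower in Sst/Nppb cells. The Tmem63a level there overlapped with those of Mrgpra3 and Mrgprd cells. Of 34 Th cells, all had Tmem63b and none had Tmem63a.

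**Figure D4:**
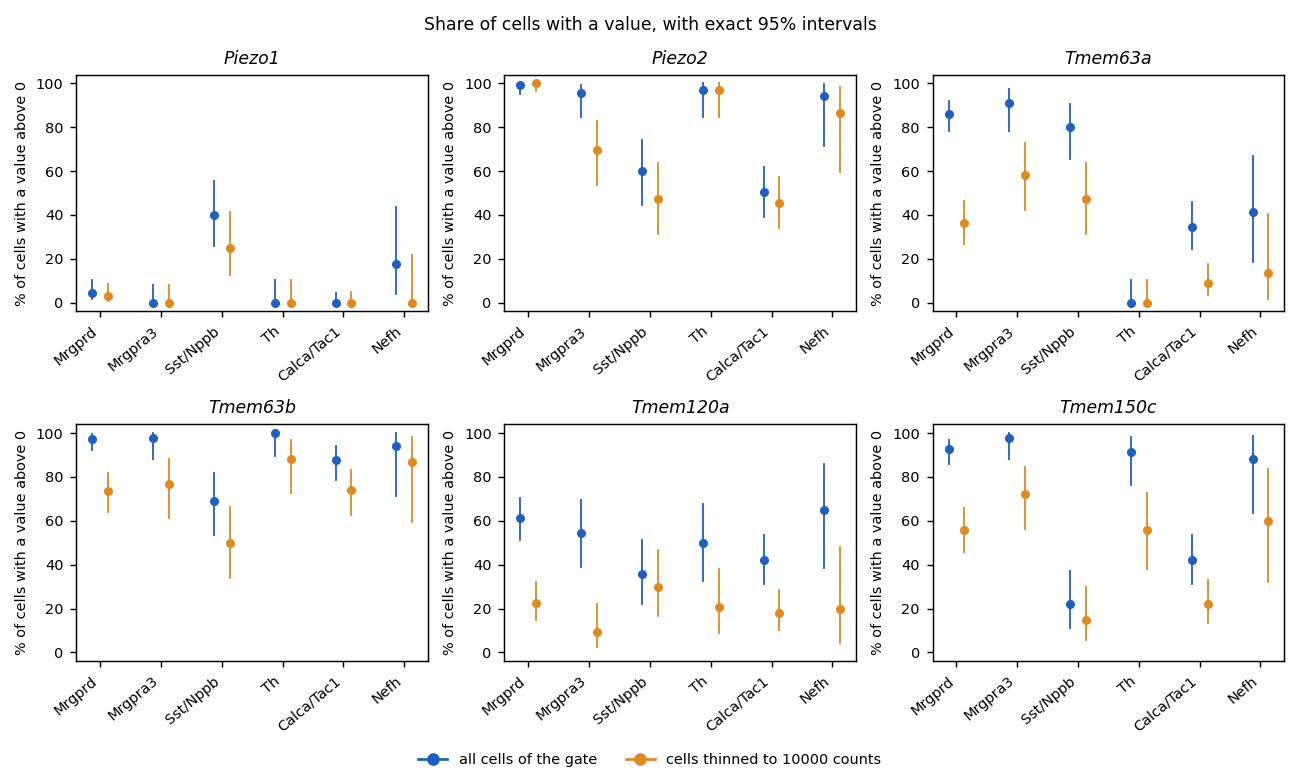
Share of cells of each gate with a value above 0 (vertical axis, %) for the 6 genes, for all cells (blue) and for cells thinned to 10000 counts (orange), with exact 95% intervals. The Piezo1 share was 40% in Sst/Nppb cells and 25% after thinning, and the Tmem63a share was 0 in Th cells on both measures.

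Tmem150c, the gene of Tentonin 3, was lowest in Sst/Nppb cells and highest in Mrgpra3 cells. Mrgpra3 means were 149 CPM in Blue and 129 in Red. Sst/Nppb means were 16.1 CPM in Blue, 12.9 in Red, 15.96 in Control and 0 in Control1. Both Mrgpra3 mice lay above every mouse of the other gates, and all Sst/Nppb mice lay under every Mrgprd mouse (66.7 to 122.1 CPM, median 82.4). Th cells held 95.98 CPM in Blue and 71.5 in Red, and Nefh cells 50.1 CPM in Control. Calca/Tac1 mice ranged from 0 to 100.3 CPM with a median of 34.5 and overlapped with most gates. Within mice Mrgpra3 exceeded Mrgprd by 0.67 ± 0.04 (SD of 2 mice), whereas Mrgprd and Th differed by 0.04 ± 0.11. A value was found in 43 of 44 Mrgpra3 cells, 92.6% of Mrgprd cells, 34 of 81 Calca/Tac1 cells and 10 of 45 Sst/Nppb cells (22.2%, interval 11.2 to 37.1%). At 10000 counts per cell the shares were 72.1% in Mrgpra3 and 15% in Sst/Nppb cells. Tmem150c fell by 2.41 in Sst/Nppb cells (SE 0.55, adjusted p = 0.00407, limma), in 4 of 4 mice. The value was -2.06 in run 1 (no Nefh mean). In runs 2 to 4 (no Mrgpra3 or Th mean) it was -2.66 (adjusted p = 0.133). Differences of 1.45 in Mrgprd (adjusted p = 0.072) and 1.63 in Mrgpra3 cells (adjusted p = 0.542) did not pass. The antisense gene Tmem150cos was at 0 in all gated cells.

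Tmem120a, the gene of TACAN, was low and had similar means in all gates, from 14.03 CPM in Calca/Tac1 to 27.9 CPM in Th cells. Mrgprd mice ranged from 9.05 to 30.6 CPM with a median of 23.1. Sst/Nppb mice held 45.2 CPM in Blue, 23.3 in Red and 0 in Control and Control1. No gate lay apart from all the others. None of its 6 differences was called by limma, with a lowest adjusted p of 0.293, and none had an unadjusted p under 0.05. A value was found in 35.6% of Sst/Nppb cells to 64.7% of Nefh cells. At 10000 counts per cell the shares ran from 9.30% in Mrgpra3 to 30% in Sst/Nppb cells, so the order by share turned with depth. Its median over cells was 0 in Sst/Nppb and Calca/Tac1 cells and at most 19.4 CPM in the other gates. That no difference was called does not show that the gates were alike.

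A median of 5 of the 6 genes had a value in a Mrgprd cell, 4 in Mrgpra3 and Nefh cells, and 3 in Sst/Nppb, Th and Calca/Tac1 cells. Only 3 of the 329 cells had all 6, and 2 of these were Mrgprd cells. In Calca/Tac1 cells 25 had both Piezo2 and Tmem150c, 16 Piezo2 alone, 9 Tmem150c alone and 31 neither. Over the 21 means of mouse and gate, centred on the mouse, Piezo2 varied with Tmem63b (Pearson r = 0.73) and Tmem150c (0.65), and Tmem63b with Tmem150c (0.78). Piezo1 went against Tmem63b (-0.83) and Tmem150c (-0.64) and weakly with Tmem63a (0.33). These r describe 21 points that share mice, libraries and depth, and carry no test.

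Among 6842 genes of at least 20 CPM, the patterns most like Piezo2 over the same 21 means were those of Clstn2 (r = 0.94), Diras2 (0.94) and Spats2l (0.93). Clstn2 was at 84.1 CPM in Th, 37.7 in Mrgprd and 0.498 in Sst/Nppb cells. Tmem63a was most like Gnal (0.95), Prkcd (0.94) and Rap1gap2 (0.93). Gnal encodes a stimulatory G protein alpha subunit and was at 849 CPM in Sst/Nppb, 830 in Mrgprd, 823 in Mrgpra3 and 150.3 in Th cells, and Prkcd, a protein kinase C, at 662, 636, 655 and 151 CPM. Tmem63b was most like Emc9, Tmem189 and Pea15a (0.93, 0.92 and 0.91). Tmem150c was most like Cdk4, Cd200 and Tex264 (0.92, 0.92 and 0.91), and Tmem120a like Taf1b, Pdcl and Rheb (0.89, 0.88 and 0.87). Likeness was ranked over many genes and few means, and it is a description.

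Other channels with a described link to mechanical force were read from a list of 20 genes, of which 12 passed the filter on low values. In Mrgprd cells 3 of the 12 rose and 2 fell, with a median difference of 0.51 against 0.09 over all genes tested, of which 12.1% were called. Trpc6, a diacylglycerol-gated cation channel, was at 91.8 ± 45 CPM there (n = 6) and 19.8 in the mean of the other gates, a difference of 2.49 (adjusted p = 1.85e-05, limma). The irritant receptor Trpa1 rose by 2.33 and Trpv2 by 1.29. The acid-sensing channels Asic1 and Asic3 fell by 1.61 and 1.79. In Mrgpra3 cells limma called none of the 12, and Asic1, Asic3, Kcnk2 and Trpc6 had an unadjusted p under 0.05.

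In Calca/Tac1 cells 2 of 12 rose and 2 fell, with a median of -0.05 against -0.01 over all genes, of which 9.85% were called. Asic3 rose by 2.73 (85.2 ± 54.3 CPM, n = 6) and Kcnk2 (TREK-1, a potassium channel opened by stretch) by 2.09. Trpc6 fell by 2.48 and Trpv2 by 1.20. In the Nefh cells of Control, Asic3 differed by 4.26 (SE 0.84, adjusted p = 0.0172, limma), and the other 11 did not pass. That gate has 1 mouse, so its spread is taken from the other gates. In Th cells Asic1 rose by 2.56 (56.8 ± 22.1 CPM, n = 2) and Trpc6, listed at 0 there, fell by 2.51. In Sst/Nppb cells none rose, and Asic1 and Asic3 fell by 1.40 and 1.67. These 2 of 12 are near the share of all genes called in that gate (19.4%), most of which were lower.

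Of 13 regulators of Piezo or related channels, 7 were tested. Stom (stomatin), a membrane scaffold related to the Piezo2 modulator Stoml3, rose by 3.02 in Sst/Nppb cells (SE 0.42, adjusted p = 3.82e-05, limma), with 73.9 ± 13.5 CPM (n = 4) against 7.46 in the mean of the other gates. The 4 mice, from 57.1 to 88.8 CPM, lay above every mouse of the other gates. Stom fell by 2.08 in Th cells, where it was listed at 0 in both mice, as in the Nefh cells of Control. Tmem120b, the paralog of Tmem120a, fell by 1.52 in Sst/Nppb cells. Stoml1 rose by 0.96 in Mrgprd cells and fell by 1.04 in Calca/Tac1 cells. Of the 7, 1 was called in each of the Mrgprd, Calca/Tac1 and Th gates, where 12.1%, 9.85% and 6.37% of all genes were. In Sst/Nppb cells 1 rose and 1 fell, where 19.4% of all genes were called. The Mrgprd and Calca/Tac1 counts are near those shares. In Mrgpra3 and Nefh cells none of the 7 was called. Stoml3 and Mdfi were at 0 in all gates, and Mdfic, which encodes an auxiliary subunit of Piezo channels, was at 0 in Sst/Nppb, Th and Calca/Tac1 cells.

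**Figure D5:**
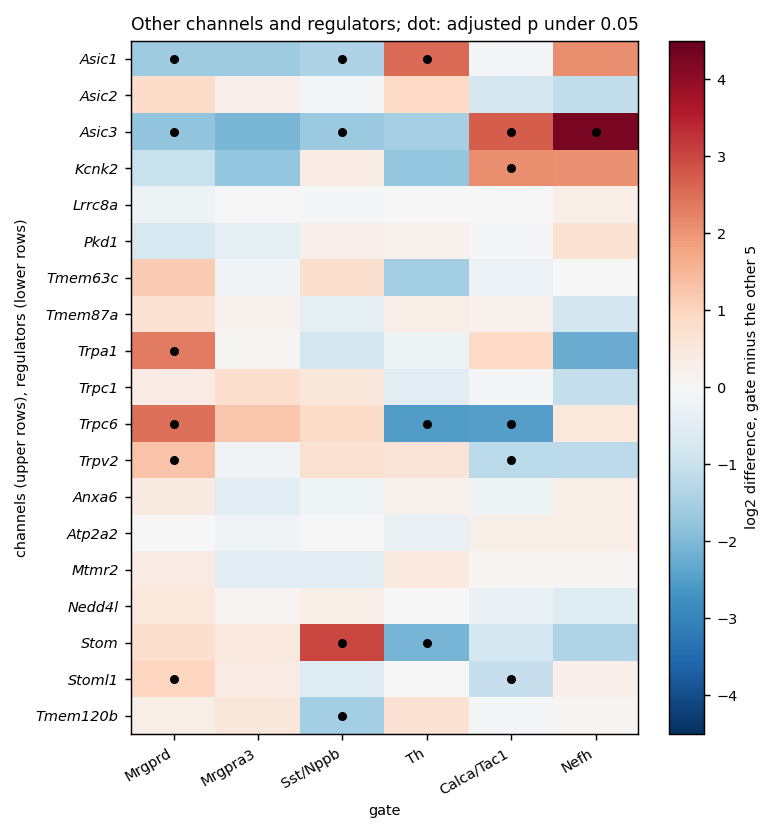
Difference of each gate (columns) from the mean of the other 5 gates on the log2(CPM + 5) scale (colour, red higher and blue lower) for the 12 tested channels (upper rows) and 7 tested regulators (lower rows), with a dot at an adjusted p under 0.05. Asic3 in Nefh cells, which rest on 1 mouse, and Stom in Sst/Nppb cells were the 2 darkest red cells.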

How the data were processed

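Single tdTomato-sorted cells were sequenced by a digital RNA method, 1 library per cell, per the labels' protocols. The build mm10 and the aligner STAR 2.7.3a are listed in the submitters' processing notes. The deposited unit is a signal, the count of a gene times a factor that varies by cell. How that factor was set is not stated in the labels or headers. Among low values, a median of 96.4% per kept cell lay within 0.1 of a whole multiple of 1 count, and 252 of 394 columns passed as whole reads. The labels list 400 cells, and 6 were not analysed here. Rows with dates in place of symbols (26, with 0.154% of the signal) and Rn45s (7.11%) were left out before scaling to CPM. The 23 cells with fewer than 500 genes held at most 383 counts.

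Mean CPM was formed per mouse and gate with at least 3 cells, for cells of exactly 1 gate, and tested with limma 3.58.1 (R 4.3.3) on log2(CPM + 5), over genes of at least 10 CPM, with gate genes left out. Because gates were set on the same cells, p-values are conditional on them. The mouse is the replicate, and gates are paired by mouse where a mouse had a mean in both. Intervals are exact Clopper-Pearson, and a count of 0 also has a floor of 3 cells. Alternatives included edgeR 4.0.16 and DESeq2 1.42.0 on recovered counts, rounded to whole numbers. The fit was tested on simulated data. Members, gates and gene lists were chosen with earlier results of these data known. Named genes were the 6 members, the 3 genes most like each member of at least 10 CPM on average, and every listed gene called in a gate. Doublets were not called, and cells of 2 gates were left out. Some results are not reported here.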

Additional observations from a re-analysis of the deposited data

Results flagged for a closer look

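In 17 groups of mouse means with 4 to 10 mice, the highest or lowest mouse was compared with its nearest neighbour by Dixon's rule, which flags about 1 in 20 groups by chance. A mouse stood apart in 2 of them. Control1 was far above the other 5 mice for Piezo1 in Mrgprd cells, at 3.805 CPM against at most 1.03 CPM, and 1 of its 8 cells, at 30.4 CPM, was the only one with a value. Control was far above the other 5 for Tmem63b in Mrgprd cells, at 223.4 CPM against at most 153.9 CPM. Of its 15 cells, 1 held 1304 CPM of Tmem63b and 4890 CPM of Piezo2, and without that cell the means were 146 CPM and 762 CPM, within the range of the other mice.

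The 28 cells that passed no gate were not used in any comparison above, and each member was looked for in them because a count of 0 would allow a share of up to 10.71% of cells. Tmem63b had a value in 23 of these cells, Piezo2 in 19, Tmem150c in 17, Tmem63a in 6 and Tmem120a in 5. Piezo2 had a mean of 786 CPM and a median of 740 CPM over them. Taken over cells in the same way, Mrgprd cells had a mean of 785 and a median of 719 CPM. Nefh cells had a mean of 736 and a median of 702 CPM. Piezo1 had a value in 1 of the 28 cells, at 588 CPM.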

How the results depend on the processing

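Over the 27 alternatives, all 10 called member differences kept their direction, and 3 (Piezo2 in Mrgprd, Sst/Nppb and Th cells) kept their call in every one that gave a value. Of the 14 tested differences not described by direction, 13 changed sign in at least 1 alternative and 3 were called in any. The number of member calls, 10, was 17 with at least 5 cells per mouse and gate, 16 with edgeR, 17 in run 1, 3 in runs 2 to 4, and 5 to 11 with 1 mouse left out, lowest without Blue. Those fits did not all make the same tests. With edgeR Piezo1 was also tested. Run 1 and the fit without Control had no Nefh mean, and runs 2 to 4 had no Mrgpra3 or Th mean. Calls in a missing gate could not be made. The Tmem63a difference in Nefh cells, -2.15, turned to 0.60 with cells thinned to 10000 counts.

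Shares of genes called moved more. They are given in % of the genes tested, whose number varied with the setting and was 9161 in the limma fit as reported, 17529 without a filter on low values, 10579 with edgeR and 17292 with DESeq2. Without each mouse in turn they ran from 4.98 to 12.1 in Mrgprd, 0 to 3.35 in Mrgpra3, 6.62 to 22.7 in Sst/Nppb, 0.987 to 10.5 in Th, 3.31 to 12.9 in Calca/Tac1 and 0.227 to 1.15 in Nefh cells. The limma count of 0 in Mrgpra3 cells was without Red, with 267 genes at an unadjusted p under 0.05. In Mrgprd cells the 12.1 became 12.98 without a filter, 24.2 with at least 5 cells, 29.7 with edgeR, 15.5 with DESeq2, 19.4 in run 1, 4.5 in runs 2 to 4 and 22.7 with weighted means. In Mrgpra3 cells the 2.1 became 4.997 without a filter, 4.95 with all cells of the gate, 16.9 with at least 5 cells, 17.2 with edgeR, 8.11 with DESeq2, 18.1 in run 1, 4.04 without cells rich in glial and 6.07 in satellite glial genes, 3.34 with doubled thresholds and 10.2 with weighted means. In Sst/Nppb cells the 19.4 became 17.3 without a filter, 33.4 with at least 5 cells, 7.67 thinned, 33.5 in run 1 and 3.79 in runs 2 to 4. In Th cells the 6.37 became 7.72 without a filter, 29.1 with at least 5 cells, 22.7 with edgeR, 11.6 with DESeq2, 35.1 in run 1, 15.6 without cells rich in satellite glial genes and 16.2 with weighted means. In Calca/Tac1 cells the 9.85 became 12.2 without a filter, 18.7 with at least 5 cells, 23.9 with edgeR, 11.5 with DESeq2, 22.6 in run 1, 1.47 in runs 2 to 4 and 18.8 with weighted means. In Nefh cells the 0.797 became 0.404 with a pseudocount of 1, 8.69 without a filter, 6.32 with all cells of the gate, 1.49 without the mouse block, 11.5 with at least 5 cells, 1.33 with Rn45s kept, 1.48 thinned, 15.1 with edgeR, 4.71 with DESeq2, 0.12 in runs 2 to 4, 1.27 and 6.95 with doubled and halved thresholds, 1.34 with cells of at least 2000 genes and 3.53 with weighted means. The cause of these changes was not tested.

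The direction of called genes also depended on scaling. In Sst/Nppb cells 582 genes were higher and 1191 lower, against 1190 and 1298 with edgeR, 1185 and 1040 with DESeq2, and 292 and 2020 with log2 values averaged over cells. In Th cells 273 and 311 became 1195 and 809 with DESeq2, in Mrgprd cells 615 and 494 became 2067 and 1076 with edgeR, and in Nefh cells 40 and 33 became 1188 and 407 with edgeR and 55 and 15 with averaged log2 values. The median difference over all genes in Sst/Nppb cells was -0.17, against -0.50 with averaged log2 values and 0.25 with DESeq2. Without cells of 1000 CPM or more of satellite glial and Schwann cell genes together, no mouse kept 3 cells in the Th and Nefh gates, so those have no value there. The alternatives without the Nefh gate, with whole reads only, with weighted means and without cells rich in satellite glial genes were chosen after seeing the data. By the replicate numbers of the labels no paired analysis was possible because they only name cells within a mouse. Gates of the same mouse were paired through the mouse block.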
